A study of Mus musculus with 12 samples.

Results

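The let-7 family with miR-98 was followed in the quadriceps, the large extensor muscle of the thigh, of wild-type mice and of mice that lack cofilin-2. The members were chosen by name, without use of their levels: mmu-let-7a, mmu-let-7b, mmu-let-7c, mmu-let-7d, mmu-let-7e, mmu-let-7f, mmu-let-7g, mmu-let-7i and mmu-miR-98, written without the species prefix from here on. They are 9 of the 1096 miRNA names on the array, and the starred names of the opposite strands were kept apart. The study asked which miRNAs are altered when cofilin-2, an actin-binding protein of skeletal muscle, is missing. Its 12 samples were the muscles of 6 wild-type mice (genotype wildtype, WT1 to WT6) and 6 cofilin-2 null mice (Cfl2-KO, KO1 to KO6), all of strain C57Bl/6 and all taken at postnatal day 7. How the Cfl2 allele was inactivated, and whether in muscle alone, is not given in the sources used here. According to the methods the mice were littermate pairs, but no source states that equal sample numbers mark a pair, and the groups were compared unpaired. All WT samples carry the label Cy5 and all KO samples the label Cy3, so a difference between genotypes and a difference between dyes cannot be told apart in any value below. Cfl2 is a protein-coding gene and is not on a miRNA array, so the genotype could not be checked from these values.

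let-7 miRNAs are short RNAs that bind target mRNAs through bases 2 to 8, the seed, and lower their translation and stability. Known targets of the family include Hmga2, Ras genes, cell cycle genes and Lin28a, whose protein in turn blocks the maturation of let-7 precursors. Mature let-7 rises as tissues differentiate and is abundant in differentiated muscle. Because the members share a seed they are thought to act on largely the same mRNAs, while they come from genes on several chromosomes, many of them within clusters that carry other miRNAs.

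The 9 mature sequences show how close the members are to each other, which bears on what an array can separate. They are given 5′ to 3′ from RefSeq (GRCm38.p6), with the seed in capitals.
let-7a: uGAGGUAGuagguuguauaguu
let-7b: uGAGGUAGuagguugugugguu
let-7c: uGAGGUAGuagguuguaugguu
let-7d: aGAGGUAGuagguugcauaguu
let-7e: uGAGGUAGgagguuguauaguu
let-7f: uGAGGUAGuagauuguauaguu
let-7g: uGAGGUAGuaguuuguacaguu
let-7i: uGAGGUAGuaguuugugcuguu
miR-98: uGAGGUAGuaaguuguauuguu

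Every member is 22 bases long and carries the seed GAGGUAG. Counted from the 5′ end, with the base of let-7a first, let-7c differs from let-7a by A19G alone, let-7e by U9G and let-7f by G12A. let-7b differs by A17G and A19G, let-7d by U1A and U16C, let-7g by G12U and U18C, and miR-98 by G11A and A19U. let-7i is the farthest from let-7a, with G12U, A17G, U18C and A19U. Among the 36 pairs of members, 4 differ at 1 base, 10 at 2 and 11 at 3, and the most distant pair differs at 6. The sequences of the array's probes were not given in the sources used here, and the share of a probe's signal that comes from a near-identical member was not tested.

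The genes of the family lie on 7 chromosomes of GRCm38.p6. A cluster on chromosome 13 holds, on the minus strand, let-7a (Mirlet7a-1, chr13:48538239-48538260), let-7f (Mirlet7f-1, chr13:48537889-48537910) and let-7d (chr13:48536078-48536099). On chromosome 15, let-7c (Mirlet7c-2, chr15:85706616-85706637, plus strand) and let-7b (chr15:85707325-85707346) lie in the non-coding gene Lncppara. On the X chromosome, let-7f (Mirlet7f-2, chrX:151912353-151912374, plus strand) and miR-98 (chrX:151913229-151913250) lie in the span of Huwe1, which encodes a ubiquitin ligase. Further members sit beside miR-99a, miR-99b or miR-100 and the miR-125 miRNAs: let-7a (Mirlet7a-2, chr9:41536732-41536753, plus strand) in Mir100hg, let-7c (Mirlet7c-1, chr16:77599672-77599693, plus strand), and let-7e (chr17:17830366-17830387, plus strand) in the span of Spaca6. let-7g (chr9:106178846-106178867, plus strand) lies in the span of Wdr82, and let-7i (chr10:122985698-122985719, minus strand) has no other miRNA gene within 60 kb. Mature let-7a, let-7c and let-7f are each made from 2 genes, so that their levels cannot be assigned to a locus.

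The array was designed on miRBase version 17, and a miRNA was read as the brightness of its probe. The authors deposited normalized intensities, which are on a linear scale. Each sample's intensities summed to between 594311 and 636136, and most names were dim, with a median of 12 to 14 in a sample. Against this, 8 members had mean intensities between 3010 and 14877 in either group, and miR-98 was dim, at 77 in WT and 166 in KO. Intensities of different probes are not abundances and were not ranked against each other. The number of mice, 6 a group, limits the precision of every value. KO1 stood apart from the other KO samples: its mean correlation with its group was 0.848, against 0.907 to 0.945 for KO2 to KO6 and 0.949 to 0.970 for WT, and values that rest on it are given with and without it.

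In KO quadriceps, 8 of the 9 members had a lower mean than in WT, with log2 changes (KO minus WT) between -0.54 and -0.26, and miR-98 had a log2 change of 0.55. Of all 370 miRNAs bright enough to be tested, 56.8% had a log2 change under 0. let-7b, let-7c, let-7g and let-7i, 4 of the 9, were lower at an unadjusted p under 0.05 in limma, against 9.73% of the tested miRNAs. No member passed after Benjamini-Hochberg adjustment over the 370 (adjusted p of 0.127 to 0.763 from limma), where 1.35% of the tested miRNAs did. The median log2 change was -0.37 over the 9 members and -0.08 over all tested miRNAs. Among the 106 tested miRNAs whose mean intensity reached 1000, a range that holds 8 of the members, the median was -0.11, 64.2% had a log2 change under 0 and 11.3% were lower at the unadjusted threshold. In a whole muscle, fewer cells of a type and less of a miRNA per cell cannot be told apart.

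**Figure D1:**
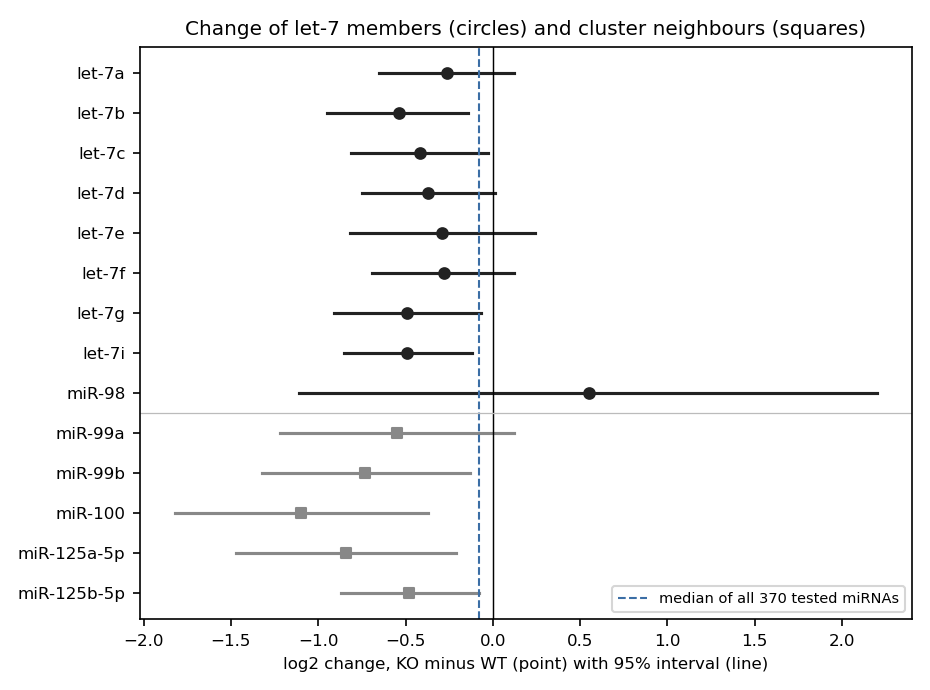
Log2 change (KO minus WT, horizontal axis) of the 9 members (circles) and of 5 miRNAs from neighbouring genes (squares), with the 95% interval from limma as a line and the median of all 370 tested miRNAs, -0.08, as a dashed line. The intervals of let-7b, let-7c, let-7g and let-7i lie below 0, and that of miR-98 runs from -1.11 to 2.20.

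let-7i, the member with no miRNA gene nearby, was the one whose groups did not overlap. Its intensity ran from 6526 over a median of 6958 to 7471 in WT and from 4025 over 5016 to 6009 in KO. The highest KO sample was thus below the lowest WT sample, which was so for 0.811% of the tested miRNAs. The log2 change was -0.49 (95% interval -0.85 to -0.12). The exact permutation test over the samples, two-sided, gave p = 0.0022, the smallest that 924 assignments allow, and an adjusted p of 0.0890 over all tested miRNAs.

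let-7g, the member within the span of Wdr82, had a change of the same size. It ran from 4322 over a median of 4900 to 5271 in WT and from 2680 over 3211 to 4650 in KO. KO1, KO2, KO3 and KO5 were below every WT sample, while KO4 and KO6, at 4569 and 4650, lay among the WT values. The log2 change was -0.49 (standard error 0.195, unadjusted p = 0.0245 and adjusted p = 0.170 from limma).

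The chromosome 15 members also had intervals below 0. let-7b ran from 5533 over a median of 7150 to 7343 in WT and from 3559 over 4829 to 5987 in KO. Its overlap came from a single WT sample, WT5 at 5533, which lay under KO1 and KO6. The ratio of the KO mean to the WT mean was 0.696, the lowest of the 9 members, and the log2 change of -0.54 had a 95% interval of -0.95 to -0.14. let-7c ran from 9689 over 11534 to 12294 in WT and from 6388 over 9150 to 10610 in KO. Here WT5 was again the lowest WT sample, and KO6 was the only KO sample above it. The log2 change was -0.42 (standard error 0.181, unadjusted p = 0.0373 and adjusted p = 0.220 from limma), and the exact permutation test gave p = 0.00433.

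The 3 members made in the chromosome 13 cluster did not reach the unadjusted threshold in limma. let-7d, which is made from that cluster alone, ran from 10052 over a median of 11394 to 11850 in WT and from 6818 over 9226 to 10378 in KO. Only KO2 was above the lowest WT sample. Its log2 change was -0.37 (standard error 0.176, unadjusted p = 0.0542 and adjusted p = 0.261 from limma), and the exact permutation test gave p = 0.00433. let-7a ran from 12771 over 14869 to 16750 in WT and from 10165 over 12260 to 15008 in KO, and let-7f from 10754 over 11763 to 13085 and from 7472 over 9652 to 12190. In both, KO1, KO3 and KO5 lay below every WT sample and KO2, KO4 and KO6 lay within the WT range. Their log2 changes were -0.26 (95% interval -0.65 to 0.12) for let-7a and -0.28 (95% interval -0.69 to 0.12) for let-7f.

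let-7e, made in the chromosome 17 cluster, overlapped widely. It ran from 2661 over a median of 3688 to 4444 in WT and from 1906 over 2943 to 4123 in KO, and its log2 change was -0.29 (95% interval -0.82 to 0.24). Among the 8 brighter members it had the widest spread within groups, with a pooled SD of 0.397 on the log2 scale. The other 7 had SDs of 0.187 to 0.265, and the median tested miRNA had 0.548.

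miR-98 was dim, and it was the only member with a log2 change above 0. Its intensities were 31, 26, 54, 147, 125 and 79 in WT1 to WT6 and 13, 42, 126, 311, 65 and 441 in KO1 to KO6. KO1 had the lowest value of all 12 samples, and KO4 and KO6 had the highest. KO4 and KO6 were also the highest KO samples for let-7a, let-7c, let-7e, let-7f, let-7g and let-7i, but not for let-7b and let-7d. The range over the KO samples was 33.9-fold, against 5.65-fold in WT, and the log2 change of 0.55 had a standard error of 0.770 (unadjusted p = 0.490 and adjusted p = 0.763 from limma). The log2 change was 1.11 without KO1 and 0.09 without KO6.

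With the exact permutation test in place of limma, let-7b, let-7c, let-7d, let-7g and let-7i were lower at an unadjusted p under 0.05, which makes 5 of the 9, against 10.3% of the tested miRNAs. After adjustment over all tested miRNAs, 0 of them passed with this test, and the smallest adjusted p was 0.0890. The plot of each member by sample shows that the same KO samples were low in many of the members.

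**Figure D2:**
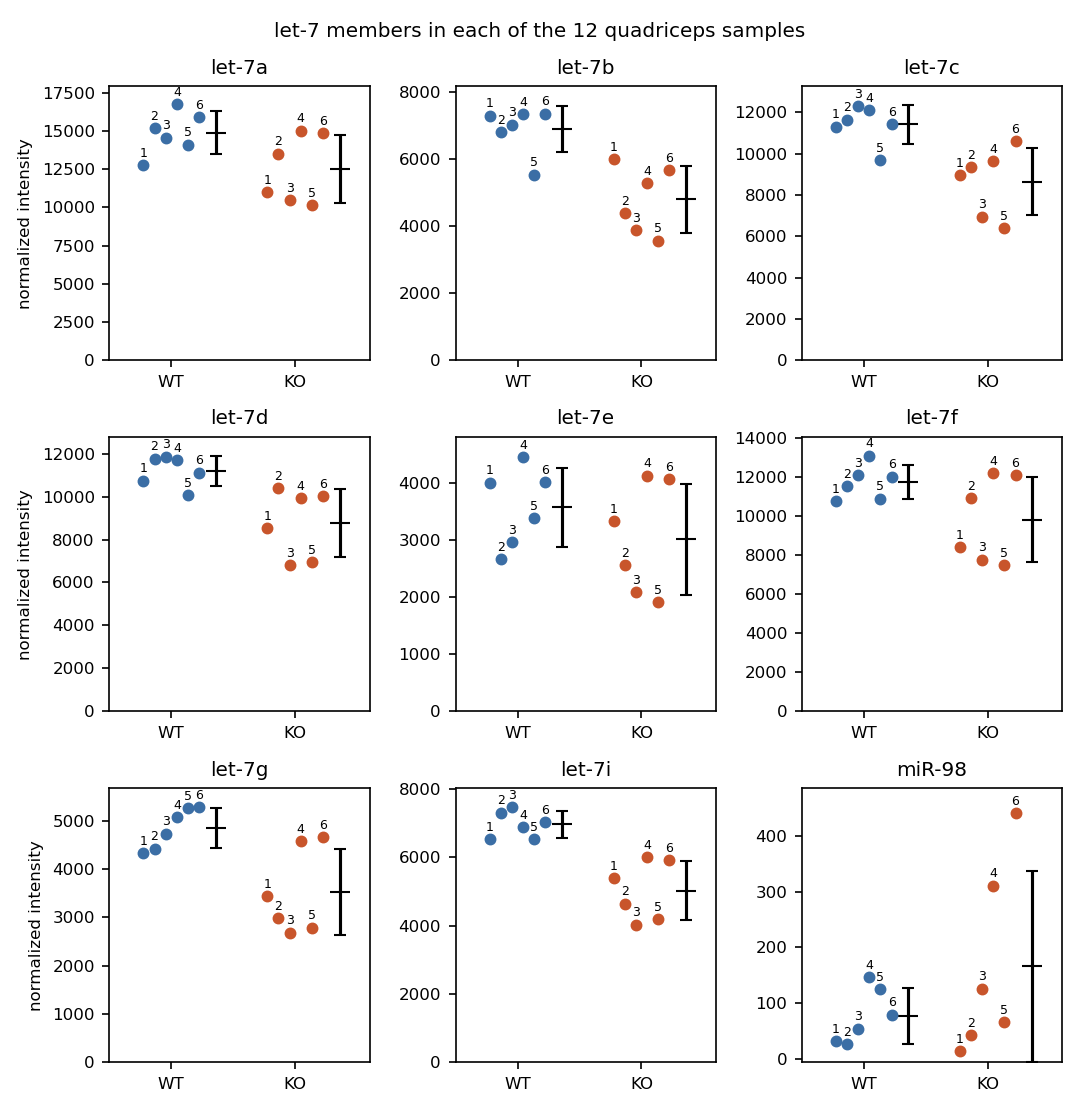
Normalized intensity (vertical axis, linear, starting near 0 and scaled to each member) of the 9 members in the 6 WT samples (blue) and the 6 KO samples (orange), numbered as in their labels, with the mean and the SD beside each group. let-7i is the member whose KO samples all lie below the WT samples, and miR-98 has its highest values, 311 and 441, in KO4 and KO6.

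The 8 members other than miR-98 moved together from sample to sample. KO3 and KO5 were the 2 lowest of the 12 samples for all 8, and both lay below every WT sample in each case. KO1 lay below every WT sample in 6 of the 8, KO2 in 5, KO4 in 4 and KO6 in 2. Set against the WT mean of each member, the median log2 difference of the 8 was -0.76 in KO5 and -0.73 in KO3. It was -0.38 in KO1 and -0.37 in KO2, and only -0.12 in KO4 and -0.08 in KO6. In the WT samples it ran from -0.10 to 0.09. The median over all tested miRNAs was between -0.10 and 0.00 in each KO sample and did not follow the let-7 order, at -0.02 in KO3 and 0.00 in KO5. The intensities were deposited already normalized, and only 106 of the 370 tested miRNAs averaged 1000 or more, as the 8 members did. This median therefore cannot show how other bright miRNAs stood in KO3 and KO5. The 8 members were thus far below WT in KO3 and KO5 and close to WT in KO4 and KO6. Without KO3, and likewise without KO5, let-7b and let-7i were past the unadjusted threshold, 2 of the 9, against 7.30% and 7.84% of tested miRNAs lower.

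**Figure D3:**
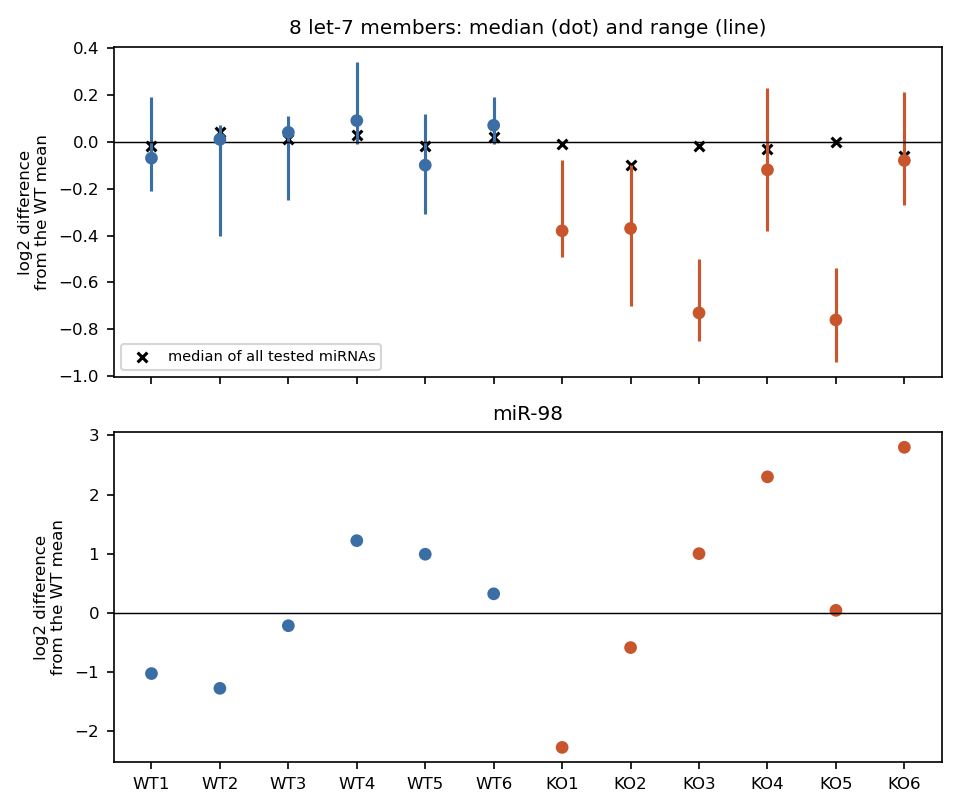
Log2 difference of each sample from the WT mean (vertical axes): above, the median (dot) and range (line) of the 8 members without miR-98, with the median of all tested miRNAs as a cross; below, miR-98. The 8 members are lowest in KO3 (-0.73) and KO5 (-0.76) and nearest to WT in KO4 and KO6, where miR-98 is highest (2.30 and 2.80).

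More members passed the adjusted threshold when KO1 was left out or when all samples were weighted. Without it, let-7b passed the adjusted threshold, with a log2 change of -0.61 and an adjusted p of 0.0401 from limma, but 7.30% of all tested miRNAs were then lower at that threshold. Samples were also weighted by how well they fitted their group, where KO1 received a weight of 0.156 and the others 0.500 to 3.31. The highest weight, 3.31, went to KO3, one of the 2 samples in which the 8 members were lowest. KO6, where they were nearest to WT, had 0.500. Under these weights let-7b, let-7c, let-7d, let-7f, let-7g and let-7i passed, 6 of the 9, against 15.9% of tested miRNAs. The median log2 change of the members was -0.57 under the weights, against -0.37 without KO1. With the test limited to miRNAs that averaged 500 or more, let-7b and let-7i passed, 2 of the 8 members tested, against 5.56%. let-7a and let-7e passed the adjusted threshold in none of the 24 alternatives run, and miR-98 in none of the 23 that tested it.

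Ratios between members within a sample do not depend on a single factor by which the whole sample was scaled. They ask whether members changed unequally. Of the 36 pairs, none passed the two-sided exact permutation test after adjustment over the pairs (smallest adjusted p = 0.346), and 4 passed unadjusted. These 4 set let-7a or let-7f, of the chromosome 13 and other clusters, against let-7g or let-7i. Of the 8 pairs with miR-98, 0 passed unadjusted. The unadjusted count of 4 was 0 under quantile normalization, 1 under cyclic loess and 5 under the replicate block. With a sample left out it was 0 without WT1, KO2 or KO3, and at most 14, without KO1. The ratio of let-7a to let-7i was 1.96, 2.08, 1.95, 2.43, 2.16 and 2.26 in WT1 to WT6 and 2.04, 2.91, 2.60, 2.50, 2.43 and 2.51 in KO1 to KO6. KO1 had a ratio in the WT range, and KO5 was level with the highest WT sample, while the other KO samples lay above WT. The log2 difference of the ratio was 0.22 (standard error 0.0848, exact permutation p = 0.0281). For let-7a over let-7g it was 0.23 (exact permutation p = 0.0368), for let-7f over let-7g 0.21 (exact permutation p = 0.0433) and for let-7f over let-7i 0.20 (exact permutation p = 0.0476). let-7a and let-7f kept nearly one ratio, 1.19 to 1.32 in WT and 1.23 to 1.36 in KO, with a log2 difference of 0.02 (standard error 0.0388). let-7g and let-7i did so as well, with a log2 difference of -0.01 (standard error 0.0841).

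**Figure D4:**
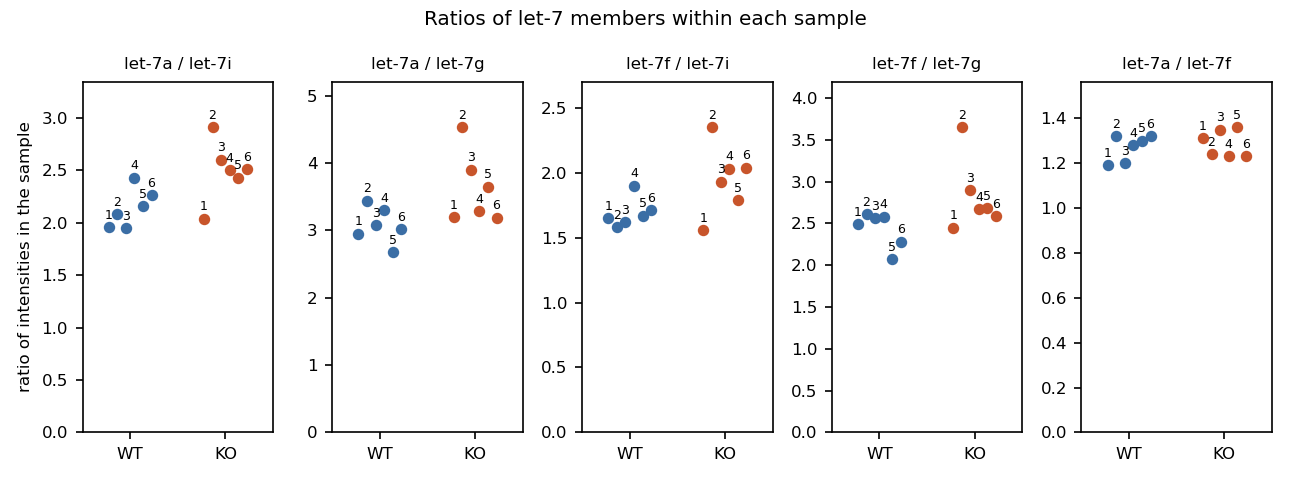
Ratio of the intensities of a pair of members in each sample (vertical axes, linear, from 0), for the 4 pairs past the unadjusted exact permutation test and for let-7a over let-7f, in WT (blue) and KO (orange) with sample numbers. In KO1 the ratio of let-7a to let-7i (2.04) lies among the WT values and that of let-7f to let-7i (1.56) just below them, while the ratio of let-7a to let-7f covers nearly the same range in both groups.

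More pairs passed without KO1: 7 of the 36 pairs passed the adjusted exact permutation test, with an adjusted p of at most 0.0334 and differences of 0.18 to 0.38 in size. let-7b was lower against let-7a (log2 difference of the ratio 0.38), and let-7f over let-7g and let-7f over let-7i differed by 0.25 and 0.26. The remaining pairs were let-7a with let-7i (0.28), let-7b with let-7c (-0.18), let-7b with let-7f (-0.37) and let-7c with let-7f (-0.19). In each of these 7 pairs the member that was lower in KO relative to its partner was let-7b, let-7c, let-7g or let-7i. These are the members with the log2 changes furthest below 0. The log2 difference of a ratio equals the difference between the members' log2 changes, so the direction follows from those changes and is no separate result. The ratio of let-7a to let-7b was 1.75 to 2.55 in WT, 1.84 in KO1 and 2.62 to 3.08 in KO2 to KO6, and over all samples its log2 difference of 0.28 had an exact permutation p of 0.0628. Members that differ at a single base differed in their change by a median of 0.07 on the log2 scale (4 pairs without miR-98), those with 2 different bases by 0.13 (8 pairs), with 3 by 0.08 (8 pairs) and with 4 by 0.15 (6 pairs). These are descriptions of pairs that share members.

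let-7a, let-7c and let-7e have genes beside those of miR-99a, miR-99b or miR-100 and of miR-125a or miR-125b, and such neighbours are known to be transcribed together. The 5 mature neighbours share no seed with let-7, as their sequences show (RefSeq, GRCm38.p6, seed in capitals).
miR-99a: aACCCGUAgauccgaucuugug
miR-99b: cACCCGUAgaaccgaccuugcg
miR-100: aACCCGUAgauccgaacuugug
miR-125a-5p: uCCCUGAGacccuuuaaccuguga
miR-125b-5p: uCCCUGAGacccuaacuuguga

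On chromosome 17 the gene starts of Mir99b and Mirlet7e are 164 bp apart and those of Mirlet7e and Mir125a 460 bp. On chromosome 16 Mir99a and Mirlet7c-1 are 721 bp apart, and Mir125b-2 starts 46616 bp from Mirlet7c-1. On chromosome 9 Mir100 and Mirlet7a-2 are 5291 bp apart, and Mir125b-1 starts 45210 bp from Mirlet7a-2.

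All 5 neighbours had log2 changes under 0, with a median of -0.73, and 4 were lower at the unadjusted threshold, against 9.73% of tested miRNAs. None of the 5 passed after adjustment with equal weights for all samples. Under array weights 4 of the 5 did, with log2 changes of -1.26 for miR-100, -1.23 for miR-125a-5p, -1.05 for miR-99b and -0.62 for miR-125b-5p, against 15.9% of tested miRNAs. For miR-100, the WT mean was 168 ± 32.5 (SD, n = 6) and the KO mean 88 ± 50.7 (SD, n = 6). This was a log2 change of -1.10 (standard error 0.337), with adjusted p = 0.0955 in limma and 0.0222 without KO1. miR-100 is dim, and with a pseudocount of 50 its log2 change was -0.72 (adjusted p = 0.0759 in limma). miR-125a-5p had a log2 change of -0.84 (adjusted p = 0.127 from limma); 5 KO samples lay under the whole WT group, and KO6, at 875, did not. miR-99b had one of -0.73 (adjusted p = 0.157 from limma, and 0.0308 without KO1), and miR-125b-5p one of -0.48 (adjusted p = 0.160 from limma). miR-99a, at -0.55, had an unadjusted p of 0.0995 in limma.

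The members and their neighbours were compared within samples in 6 pairs. With all samples none of the 6 passed, adjusted or unadjusted. The log2 difference (KO minus WT) was 0.83 for let-7a over miR-100 (standard error 0.400, exact permutation p = 0.0649), 0.55 for let-7e over miR-125a-5p (standard error 0.393, exact permutation p = 0.186) and 0.44 for let-7e over miR-99b (standard error 0.347, exact permutation p = 0.227). For let-7a over miR-125b-5p it was 0.21 (standard error 0.167), for let-7c over miR-99a 0.13 (standard error 0.347) and for let-7c over miR-125b-5p 0.06 (standard error 0.167). All 6 differences were above 0, but the pairs share members and samples. The ratio of let-7a to miR-100 was 64.8 to 138 in WT, 67.5 in KO1 and 107 to 338 in KO2 to KO6. Without KO1 its log2 difference was 1.08 (standard error 0.365, exact permutation p = 0.0108, adjusted p = 0.0649 over the 6 pairs), and the other pairs had unadjusted p-values of 0.130 to 0.978. let-7a and let-7c are in addition made from genes outside these clusters.

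The opposite strands of the let-7 and miR-98 hairpins, which are usually degraded after processing, were on the array under 11 names, of which 3 were bright enough to be tested. let-7d* had a WT mean of 727 and a log2 change of -0.08 (standard error 0.432), let-7g* a WT mean of 110 and a change of -0.27 (standard error 0.232), and let-7b* a WT mean of 74.5 and a change of -0.10 (standard error 0.283). Their adjusted p-values from limma were 0.954, 0.587 and 0.897. let-7d* was at 163 in KO1 and 383 in WT1, the lowest sample of each group, with 562 to 1170 in the remaining KO samples, and its log2 change was 0.32 without KO1, where that of let-7d was under 0 in every alternative run. The difference between the strands was not tested.

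Of the 1679 mature names in the reference table, 11 carry the let-7 seed. Apart from the members, 1 of these, miR-1961, was on the array, and it was dim, at 5 to 8 in WT and 1 to 8 in KO. Of the 1096 array names, 597 matched a name in that table, and the seeds of the others were not looked at.

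Among the 136 miRNAs outside the family with an average intensity of 500 or more, the profile over the 12 samples most like the mean of the 9 members was that of miR-26a. The measure was the root mean square difference of the centred log2 values, which was 0.200 for miR-26a and 0.575 for the median candidate. The next were miR-539-5p (0.274), miR-30a (0.276), miR-322* (0.288) and miR-30d (0.292). miR-98 weighs on this mean. Against the mean of the 8 other members, a choice made after its values were seen, miR-26a was again nearest, at 0.111, within the range of the 8 themselves (0.0765 for let-7c to 0.216 for let-7e), and miR-98 was at 1.41. miR-26a had a log2 change of -0.33 (adjusted p = 0.297 from limma).

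Markers of cell types were read beside the family. Of the skeletal muscle miRNAs miR-1 (listed as miR-1a), miR-133a, miR-133b and miR-206, 0 of 4 passed the unadjusted threshold in limma, and their summed intensity was 81000 to 93229 in WT and 78874 to 105680 in KO. The log2 change was 0.17 for miR-1a (adjusted p = 0.685 from limma), -0.35 for miR-133a, -0.38 for miR-133b and -0.08 for miR-206. miR-1a, the brightest of the 4, weighs most on the sum. For endothelium, miR-126-3p was lower, with a log2 change of -1.20 (unadjusted p = 0.00193 and adjusted p = 0.0615 from limma), and the pair of endothelial names summed to 2233 to 4745 in WT and 765 to 2709 in KO, with miR-126-5p at 1 to 6. The part of endothelial cells in the let-7 values was not tested. The summed smooth muscle miRNAs were at 3555 to 4909 in WT and 3241 to 6241 in KO. miR-143 had a log2 change of -0.02 and miR-145 one of -0.60 (unadjusted p = 0.929 and 0.0561 from limma). The summed blood cell miRNAs were at 77 to 438 in WT and 31 to 339 in KO. Of these 5, 1 was bright enough to be tested, miR-451, with a log2 change of -0.94 (unadjusted p = 0.197 from limma). The liver, neuron and epithelium markers were near 0, with sums of at most 38 in any sample.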

How the data were processed

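miRNA levels were measured in quadriceps of 6 WT and 6 Cfl2-KO mice on an array for miRBase version 17. Total RNA was isolated with a mirVana kit, and profiling was done by a service provider. The authors deposited normalized intensities, linear and in whole numbers, for 1096 names per sample. The normalization and background correction are not given in the sources used here. Intensities carry no counts, so precision was taken from the spread among mice.

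Values were taken to log2 with a floor of 1. The test covered the 370 miRNAs that averaged 32 or more over the 12 samples, and all 9 members were among them. KO was compared with WT by limma 3.58.1 (lmFit, eBayes; R 4.3.3), two-sided, with Benjamini-Hochberg adjustment over the 370 and a threshold of 0.05. Exact permutation tests ran over the 924 assignments of the samples, for single miRNAs and for log2 ratios within samples, the latter adjusted over the pairs. The tests were checked on simulated data.

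The miRNAs named are the 9 members, 5 neighbours in their clusters, the opposite strands bright enough to be tested, the 5 nearest profiles, and cell type markers. miR-1961, a seed mate too dim to be tested, was named after its values were seen. The ratios of neighbours without KO1, the profile against the 8 members without miR-98, the full list of ratios without KO1 and the adjustment of the exact test over all miRNAs were added after the data were seen. The members and lists were chosen with earlier results of these data known. Alternatives changed the floor (32), the filter (none, or an average of 500) or the scaling (median centring, cyclic loess or quantile), or added a pseudocount of 50. Others used array weights, limma with trend and robust estimation, or Student's t-test on log2 values. The methods name that t-test for the mRNA array and name no test for the miRNA array. The remaining alternatives blocked on the replicate number (also after cyclic loess) or left out each sample. Names were matched to RefSeq mature sequences (GRCm38.p6) by name or, for let-7a of Mirlet7a-2, by its place in the hairpin; 597 of the 1096 names matched. Plots were drawn with matplotlib 3.10.9.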

Additional observations from a re-analysis of the deposited data

Results flagged for a closer look

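In 34 groups of 6 samples, each tested for a highest or lowest sample far from the rest, 5 had such a sample, where chance gives about 1 in 20 groups (1.70 expected). The groups share samples and many of the miRNAs move together, so the 5 are not independent, and their number against 1.70 was not tested. WT5 was low for let-7b and let-7c. let-7b was at 5533, against 6798 to 7343 in the other WT samples (gap 0.728 of the range), and let-7c at 9689, against 11299 to 12294 (gap 0.646). Both have a gene in the chromosome 15 cluster, but let-7c is also made from a gene on chromosome 16. WT5 was the lowest WT sample for let-7d (10052) and let-7i (6526) as well, without being flagged there. Without WT5 the log2 changes were -0.60 for let-7b (adjusted p = 0.135 from limma) and -0.47 for let-7c (adjusted p = 0.220 from limma).

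KO6 was high for miR-125a-5p, at 875, against 382 to 488 in KO1 to KO5 (gap 0.705). Without KO6 its log2 change was -1.01 (adjusted p = 0.0688 from limma).

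let-7d*, the opposite strand of the let-7d hairpin, had a low sample in each group. It was at 383 in WT1, against 719 to 919 in the other WT samples (gap 0.720), and at 163 in KO1, against 562 to 1170 in the other KO samples (gap 0.628). Its log2 change was -0.26 without WT1 and 0.32 without KO1.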

How the results depend on the processing

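The 8 members with log2 changes under 0 were under 0 in all 24 alternatives, and miR-98 was above 0 in all 23 that tested it. The unadjusted count of 4 members became 2 with no filter, 2 under the replicate block with cyclic loess and 7 under array weights, 3 under the replicate block, and 2 to 5 with a sample left out (2 without KO3 or KO5). Under quantile normalization it was 3 (let-7a, let-7b and let-7g). There let-7i had a log2 change of -0.37 and, like let-7c, did not pass (unadjusted p = 0.0534 and 0.0538 from limma). The share of all tested miRNAs lower at the unadjusted threshold was 9.73% with all samples, 7.30% without KO3 and 7.84% without KO5. For the other alternatives that share is not given, so their unadjusted counts cannot be set against it. With no filter all 1096 names were tested. The adjusted count of 0 (limma) became 2 at a mean intensity of at least 500 (let-7b and let-7i), against 5.56% of tested miRNAs lower. It was 6 under array weights, against 15.9%, and 0 to 1 with a sample left out (1 without KO1, against 7.30%). The median log2 change of -0.37 was -0.57 under array weights and -0.42 to -0.30 with a sample left out. Adjusted member ratios, 0, were 0 to 7 with a sample left out (7 without KO1) and 0 under the replicate block, quantile normalization and cyclic loess. The 4 ratios past the unadjusted exact permutation test became 0 under quantile normalization and 1 under cyclic loess. let-7d* had log2 changes of 0.00 under quantile normalization, 0.04 under cyclic loess, 0.04 under the replicate block with cyclic loess, 0.04 under array weights and 0.32 without KO1, and let-7b* 0.05 without WT6 and 0.03 without KO6, with ranges of -0.26 to 0.32 and -0.24 to 0.05 over the samples left out. The cause was not tested. Correlations of the deviations of same-numbered samples ran from -0.45 to 0.59, and 2 of the 6 WT samples had their own number as the best KO partner, so the numbers were not treated as pairs. With a pseudocount of 50, the log2 change of miR-100 went from -1.10 to -0.72 and that of miR-99a from -0.55 to -0.34. The median of the members stayed at -0.37. The signal over background of the dim miR-98, miR-99a and miR-100 and of the starred strands limits their values, and with them the ratios to miR-99a and miR-100.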
